A study of Mus musculus with 34 samples.

Results

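The nuclear-encoded genes of the mitochondrial respiratory chain were followed through gastrulating mouse embryos and differentiating embryonic stem (ES) cells that lack the long non-coding RNA Evx1as. They were chosen by gene symbol alone, as every gene named for a subunit of complexes I to V (Nduf, Sdh, Uqcr, Cox and Atp5 symbols, with pseudogenes left out). The rule found 81 of the 37145 genes listed for cultures and 80 of the 46785 genes listed for embryo sections. In cultures, 36 belong to complex I, 4 to complex II, 8 to complex III, 15 to complex IV and 18 to complex V. Atp5l2 is the complex V name listed for cultures and not for sections. Ndufa4 carries a complex I name but is counted today as a subunit of complex IV, Atp5s and Atp5sl are no longer regarded as subunits of ATP synthase, and Cox4i1, a main complex IV subunit, has a symbol that the rule does not match.

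The respiratory chain passes electrons from NADH (complex I) and succinate (complex II) through ubiquinone, complex III and cytochrome c to oxygen at complex IV, and the proton gradient built on the way drives ATP synthase, complex V. Complexes I, III, IV and V are mosaics, with a few subunits encoded in mitochondrial DNA and the rest in the nucleus, whereas complex II is encoded in the nucleus alone. Before and during gastrulation, mouse epiblast cells are known for their high glycolytic flux, and respiration rises as mitochondria mature in later tissues.

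The study asked what Evx1as does in embryonic patterning. Cultured cells were mouse ES cells of strain 129S1/SVImJ taken 4 days after withdrawal of LIF (leukemia inhibitory factor), which keeps ES cells self-renewing. The 3 knock-in cultures carried the allele labelled 4x polyA KI, a knock-in whose insertion site the labels do not give, and the 3 wild-type cultures were CJ9 cells. Embryo material was laser-captured from frozen sections of embryonic day 7 embryos of strain C57/B6, and each capture was a primitive streak layer, a mesoderm layer or an anterior epiblast piece. The streak is the furrow through which epiblast cells leave to become mesoderm. Homozygous Evx1as-/- embryos gave 5 streak sections (layers 1, 5, 7, 9 and 11), 5 mesoderm sections (layers 3, 5, 7, 9 and 11) and 1 anterior epiblast section. Heterozygous Evx1as+/- embryos gave 6 streak sections (layers 1, 3, 5, 7, 9 and 11), 3 mesoderm sections (layers 7, 9 and 11) and 1 anterior epiblast section. No wild-type embryo was among them, so the heterozygous sections, which carry 1 mutant allele, are the reference. The labels do not say how many clones the knock-in line comes from, which embryo gave which section, or in which direction the layers are numbered. A further 3 sections, whose title and cell type label name different layers or regions, entered no comparison, and 4 posterior pieces were not analysed here.

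Evx1as, listed as 5730457N03Rik, stood at 0.0674 to 0.137 FPKM (fragments counted per transcript length and library size) in knock-in cultures, against 3.94 to 5.99 FPKM in wild-type cultures. In streak it stood at 0 to 0.159 FPKM in homozygous sections, against 0 to 4.57 FPKM in heterozygous sections. Evx1, its neighbouring homeobox gene, had 0.848 to 2.83 FPKM in knock-in cultures and 24.4 to 38.6 FPKM in wild-type cultures. The depth of the libraries is unknown, because the tables give FPKM and no counts. The FPKM of all genes summed to 502990 to 582184 per culture and to 132929 to 376860 per assigned section. The 6 streak markers (T, Mixl1, Eomes, Fgf8, Evx1 and Wnt3) summed to 66.3 to 87.2 FPKM in homozygous mesoderm, 240 to 448 FPKM in homozygous streak, 13.0 to 41.6 FPKM in heterozygous mesoderm and 266 to 455 FPKM in heterozygous streak. These markers separated the regions. Markers of nascent mesoderm (8 genes) did not, with sums of 80.5 to 216 FPKM in homozygous mesoderm, 96.8 to 160 FPKM in homozygous streak, 25.1 to 148 FPKM in heterozygous mesoderm and 26.2 to 184 FPKM in heterozygous streak. Culture and section tables were normalised separately and give most members different positions, so they differ in build or annotation too, and levels set side by side between them below carry both limits.

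Promoters of 4 members that changed in the comparisons below are shown first, because they put the 3 motifs searched for in view. They run from 250 bases before to 50 bases after the RefSeq gene start on GRCm38.p6, written 5′ to 3′ on the gene's strand, with a matched motif in capitals. The motifs belong to factors known to act on respiratory chain genes in mammals: nuclear respiratory factor 1 (NRF1, GCGCATGCG), the ETS-family factor GABP (CCGGAAG) and YY1 (AAGATGGCG).
Atp5g2, chr15:102670998-102671297, minus strand: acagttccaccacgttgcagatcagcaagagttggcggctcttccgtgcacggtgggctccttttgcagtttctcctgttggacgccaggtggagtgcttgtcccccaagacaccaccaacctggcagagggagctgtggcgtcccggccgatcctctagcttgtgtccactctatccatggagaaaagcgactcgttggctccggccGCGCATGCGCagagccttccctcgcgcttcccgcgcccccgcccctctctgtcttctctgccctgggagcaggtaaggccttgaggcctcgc
Ndufs4, chr13:114388045-114388344, minus strand: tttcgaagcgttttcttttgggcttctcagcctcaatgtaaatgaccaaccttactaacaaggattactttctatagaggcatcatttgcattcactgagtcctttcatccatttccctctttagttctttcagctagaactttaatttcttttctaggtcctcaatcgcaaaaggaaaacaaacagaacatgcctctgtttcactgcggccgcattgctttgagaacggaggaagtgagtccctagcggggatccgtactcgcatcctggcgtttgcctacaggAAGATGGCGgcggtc
Sdhd, chr9:50603800-50604099, minus strand: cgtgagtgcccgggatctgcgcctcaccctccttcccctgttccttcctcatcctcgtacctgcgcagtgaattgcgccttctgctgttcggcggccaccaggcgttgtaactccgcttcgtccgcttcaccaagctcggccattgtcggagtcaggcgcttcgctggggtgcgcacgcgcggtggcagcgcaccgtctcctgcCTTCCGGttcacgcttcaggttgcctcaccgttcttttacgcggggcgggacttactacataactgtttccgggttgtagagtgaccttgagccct
Uqcr11, chr10:80406772-80407071, minus strand: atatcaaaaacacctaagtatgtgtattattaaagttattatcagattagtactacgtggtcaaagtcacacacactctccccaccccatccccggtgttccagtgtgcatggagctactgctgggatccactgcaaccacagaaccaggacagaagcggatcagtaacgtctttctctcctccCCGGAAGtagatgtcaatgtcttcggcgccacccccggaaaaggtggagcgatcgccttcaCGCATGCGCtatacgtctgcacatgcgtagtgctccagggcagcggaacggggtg
Capitals mark an NRF1 motif in Atp5g2, read on both strands, a YY1 motif just after the start in Ndufs4, and an ETS motif on the opposite strand in Sdhd. In Uqcr11 they mark an ETS motif and, farther on, an NRF1 motif.

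Promoters of 68 members were in the RefSeq table. Both strands were searched and matches had to be exact, and a promoter counted once for each motif it held, overlapping or not. The NRF1 motif was in 8 member promoters (11.8%), against 1.95% of the promoters of 27025 genes. The ETS motif was in 16 (23.5%, against 9.93%) and the YY1 motif in 8 (11.8%, against 1.64%). At least 1 of the 3 was in 27 member promoters (39.7%), against 12.7% of all promoters. Among the members that changed, described below, 4 of the 12 with a promoter that changed in culture and 4 of the 6 that differed between regions held a motif. The motifs were chosen with results of these data known, and the NRF1 letters were shortened by 1 base after a first search, which raised the number of genes that match, members included. A match describes letters in a window and not a bound site.

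A second set of sequences bears on how every level below is read. Many respiratory chain genes have processed copies elsewhere in the genome, and 32 of the 80 members compared had at least 1 annotated transcript (GENCODE vM21) that matched 1 of their own coding transcripts at 90% identity or more, over at least 80% of the shorter transcript and at least 150 bases. These limits were chosen after the data were seen. At 95% identity, 21 members had one. The 60-base stretches below compare 3 members with their copies, written 5′ to 3′ on the transcript strand, with capitals at the bases that differ.
Cox7c, from transcript base 296, chromosome 13: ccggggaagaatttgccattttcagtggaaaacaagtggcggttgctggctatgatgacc
Gm12338, from transcript base 67, chromosome 11: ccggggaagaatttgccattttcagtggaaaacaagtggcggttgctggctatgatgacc
Uqcr11, from transcript base 142, chromosome 10: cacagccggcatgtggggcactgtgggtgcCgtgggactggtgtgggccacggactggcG
Gm16418, from transcript base 57, chromosome 1: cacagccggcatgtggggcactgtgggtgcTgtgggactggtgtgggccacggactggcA
Ndufa12, from transcript base 195, chromosome 10: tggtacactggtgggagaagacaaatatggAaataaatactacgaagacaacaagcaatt
Gm15920, from transcript base 69, chromosome 5: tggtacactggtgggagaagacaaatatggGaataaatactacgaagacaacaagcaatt
Gm12338 is identical to Cox7c over all of its 192 bases. Gm16418 differs from Uqcr11 at 2 of 171 aligned bases (98.8% identity), and Gm15920 differs from Ndufa12 at 2 of 402 (99.5% identity). A read from such a stretch fits gene and copy alike or nearly so, and how the reads were shared out is not given in the sources used here.

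In the embryo sections the members were abundant transcripts, and in complex I the accessory subunits stood far above the core. The median member had a mean of 19.8 FPKM over the 21 assigned sections, and 66 of the 74 members at 1 FPKM or more lay above 3.78 FPKM, the median of all 9500 genes at that level. Complex I shows the contrast between roles. Its 7 core subunits, which carry the flavin and iron-sulfur clusters, had a median of 4.91 FPKM, against 35.4 FPKM for its 28 accessory subunits. Ndufb7, an accessory subunit on the intermembrane side, led complex I with 177 ± 65.3 FPKM (SD, n = 21), and Ndufa11 was lowest with 1.17 ± 0.523 FPKM. FPKM is a level per transcript length, but the order of the genes also depends on the near-identical copies, which are not in these values. Ndufa11 had 108 FPKM on its copy and the core subunit Ndufs3 had 2.22 FPKM, with 63.5 FPKM on its copy. With copies added, the median was 5.77 FPKM for the core subunits and 68.5 FPKM for the accessory subunits, and Ndufa9 (2.62 FPKM) replaced Ndufa11 as the lowest accessory subunit.

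In complex II, the membrane anchor subunit Sdhd had the highest mean, 78.6 FPKM, and the other anchor Sdhc had 27.4 FPKM. The catalytic flavoprotein Sdha (10.2 FPKM) and the iron-sulfur subunit Sdhb (11.0 FPKM) were lower. Complex III was led by 2 of its smallest subunits, Uqcr11 (285 FPKM) and Uqcr10 (214 FPKM), and the core protein Uqcrc2 was lowest at 5.27 FPKM. In complex IV, the ubiquitous isoforms Cox6a1 (226 FPKM) and Cox8a (184 FPKM) stood highest on the genes alone, whereas with copies added Cox7c led, with 101 FPKM on the gene and 892 FPKM on its copies. In complex V, Atp5b, the catalytic beta subunit, had 60.1 FPKM and Atp5k, a membrane subunit, was listed at 0 in all 21 sections. Its 5 subunits of the catalytic head had a median of 37.9 FPKM, against 10.2 FPKM for its 7 stalk and membrane subunits. With copies added the medians were 41.1 and 136 FPKM.

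**Figure D1:**
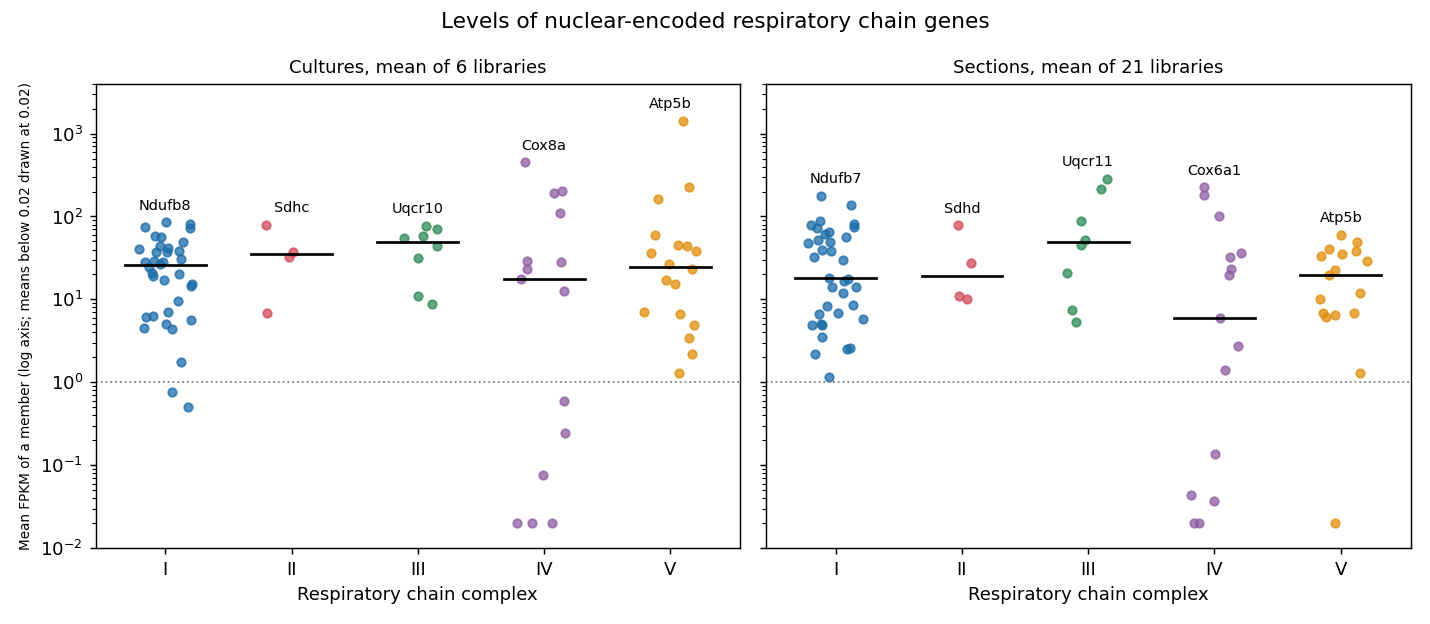
Mean FPKM of each member (vertical axis, log scale) by complex (horizontal axis), in cultures (6 libraries) and in assigned embryo sections (21 libraries). Each point is a member, the thick line is the median of the complex and the dotted line is the limit of 1 FPKM for testing. The highest members are Atp5b in cultures (1424 FPKM) and Uqcr11 in sections (285 FPKM).

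Cultures shared the breadth but not the order. Atp5b led with 1424 ± 138 FPKM (SD, n = 6), followed by Cox8a (452 FPKM). In 1 knock-in culture the authors' table marks the Atp5b estimate as failed, with a value of 1290 FPKM and a confidence interval of 0 to 75.8 FPKM, so that value is not reliable. Complex I ran from Ndufs4 (0.501 FPKM), a late-assembling accessory subunit, to Ndufb8 (84.9 FPKM). Its core subunits had a median of 18.9 FPKM and its accessory subunits 27.4 FPKM. With copies added these were 37.0 and 39.0 FPKM, so the 2 roles lay much closer than in sections. Complex II was led by Sdhc (79.4 FPKM), with Sdhb lowest (6.95 FPKM). Complex III ran from Uqcrb (8.70 FPKM) to Uqcr10 (76.9 FPKM). The median member had 26.8 FPKM, and 57 of the 73 members at 1 FPKM or more lay above the median of all genes at that level, 8.78 FPKM.

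Tissue-specific isoforms were listed at 0 or at low values. A listed 0 does not show that a gene is silent, since Atp5k, which every tissue uses, is at 0 in all 21 sections as well. The heart and skeletal muscle forms Cox6a2 and Cox7a1 were listed at 0 in all 21 assigned sections, and Cox8b had a mean of 0.0439 FPKM there. In cultures, Cox6a2 and Cox8b were listed at 0 in all 6 libraries and Cox7a1 had a mean of 0.242 FPKM. Cox8c, a testis form, averaged 0.136 FPKM in sections and 0.0760 FPKM in cultures, and Cox7b2, another testis form, was below both values in each. Cox6b2, also a testis form, was the exception, with 12.7 ± 4.91 FPKM in cultures (SD, n = 6) and 1.39 ± 1.39 FPKM in sections (SD, n = 21). Its ubiquitous counterpart Cox6b1 had 109 FPKM in cultures and 36.5 FPKM in sections. Cox7a2, the ubiquitous form beside Cox7a1, averaged 19.9 FPKM in sections and 0.604 FPKM in cultures. The 3 genes for the membrane ring of ATP synthase, Atp5g1, Atp5g2 and Atp5g3, which encode the same mature protein, had 59.5, 43.9 and 23.5 FPKM in cultures and 33.2, 6.91 and 49.6 FPKM in sections.

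The near-identical copies held a large part of the FPKM. FPKM is divided by transcript length, and copies can be much shorter than the gene. Gm12338 has 192 bases against 540 for the Cox7c transcript, and Gm16418 has 171 against 445 for that of Uqcr11. The shares below are therefore shares of FPKM and not of reads. Of all FPKM on members and their copies, copies took 60.7 to 65.2% in knock-in cultures and 56.6 to 61.2% in wild-type cultures. In sections the share ran over 57.8 to 63.4% in homozygous streak, 59.995 to 66.7% in heterozygous streak, 59.7 to 64.1% in homozygous mesoderm and 63.4 to 65.7% in heterozygous mesoderm. Copies summed to more than the gene for 25 members in cultures and 27 in sections. Cox7c, a small complex IV subunit, averaged 28.5 FPKM in cultures, against 1891 FPKM on its copies. Ndufa12, an accessory subunit of complex I, averaged 0.772 FPKM in cultures and 48.0 FPKM in sections, against 283 and 238 FPKM on its copy. Atp5k, at 0 in sections, had 112 FPKM on its copy there. These tables cannot tell apart a transcribed copy and reads of the gene assigned to the copy.

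**Figure D2:**
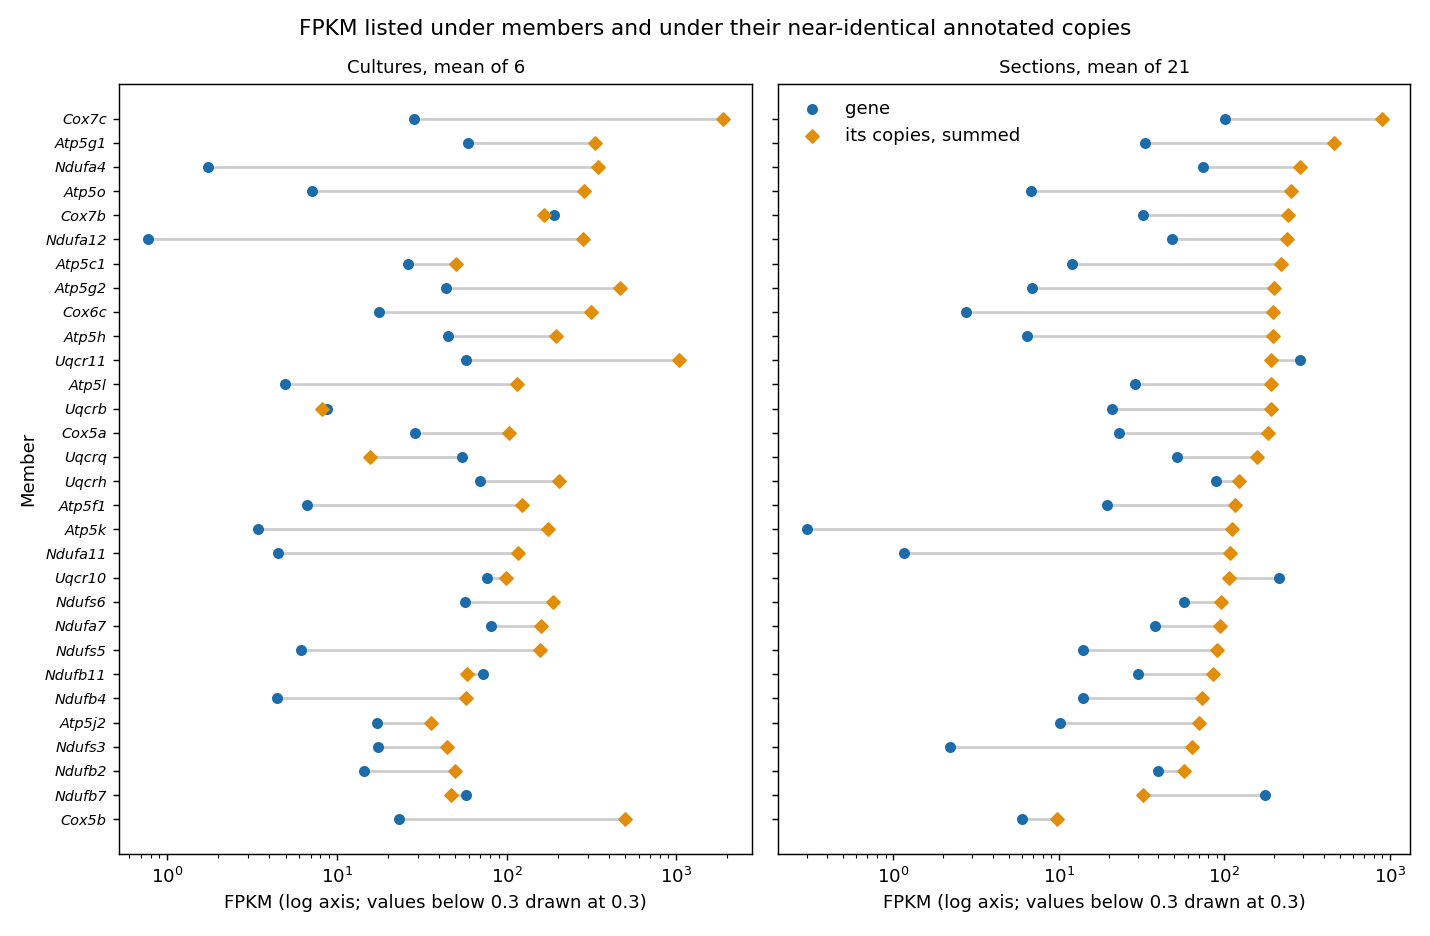
Mean FPKM (horizontal axis, log scale) of members (circles) and the summed mean FPKM of their near-identical annotated copies (diamonds), joined by a grey line, for cultures and sections, with a line of the plot for each member whose copies were above 0. For most members the diamond lies to the right of the circle, as for Cox7c, with 28.5 FPKM on the gene and 1891 FPKM on its copies in cultures.

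In day 4 cultures, 11 members were higher and 2 lower in knock-in than in wild-type cells, out of 73 tested (limma on log2(FPKM + 1), Benjamini-Hochberg adjusted p under 0.05 over 13133 genes). The share of all genes called was 16.2% higher and 16.2% lower. The 11 members that rose belong to complexes I (6), III (2), IV (1) and V (2), and no member of complex II passed. The median log2 change was 0.19 over the members and 0.02 over all genes tested, and 46 of the 73 members were above 0. Nothing in the labels says whether the 3 cultures of a line were grown separately, so p-values measure the spread between these libraries, which may be technical.

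In complex IV, Cox7c had 58.9, 43.3 and 26.5 FPKM in knock-in cultures, against 6.86, 21.8 and 13.7 FPKM in wild-type cultures. All 3 knock-in values lay above all 3 wild-type values, and the log2 change was 1.60 (SE 0.41, limma adjusted p = 0.0211). Its copies moved the same way, with 2031, 2336 and 2670 FPKM in knock-in cultures and 1474, 1464 and 1371 FPKM in wild-type cultures. Cox5b, which binds zinc at the matrix side of complex IV, had 21.6, 13.3 and 15.4 FPKM in knock-in cultures, against 23.5, 33.7 and 31.1 FPKM in wild-type cultures. The groups did not overlap, and Cox5b fell by 0.78 on the log2 scale (SE 0.21, limma adjusted p = 0.0241). Its copy Gm11273 had far higher FPKM, with 512, 434 and 411 FPKM in knock-in cultures and 491, 542 and 603 FPKM in wild-type cultures.

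In complex V, Atp5c1, the gamma subunit that turns inside the catalytic head, had 35.3, 34.2 and 43.0 FPKM in knock-in cultures, against 17.0, 17.9 and 11.0 FPKM in wild-type cultures. Every knock-in culture was higher than every wild-type culture, with a log2 change of 1.26 (SE 0.20, limma adjusted p = 0.00309). Atp5g2, which encodes the ring subunit and has the NRF1 motif printed above, had 58.1, 44.7 and 77.9 FPKM in knock-in cultures, against 30.4, 27.1 and 25.2 FPKM in wild-type cultures. It too did not overlap, with a log2 change of 1.07 (SE 0.20, limma adjusted p = 0.00635). Of the other ring genes, Atp5g1 changed by 0.43 (adjusted p = 0.141) and Atp5g3 by -0.03 (adjusted p = 0.890), and neither passed limma's test.

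**Figure D3:**
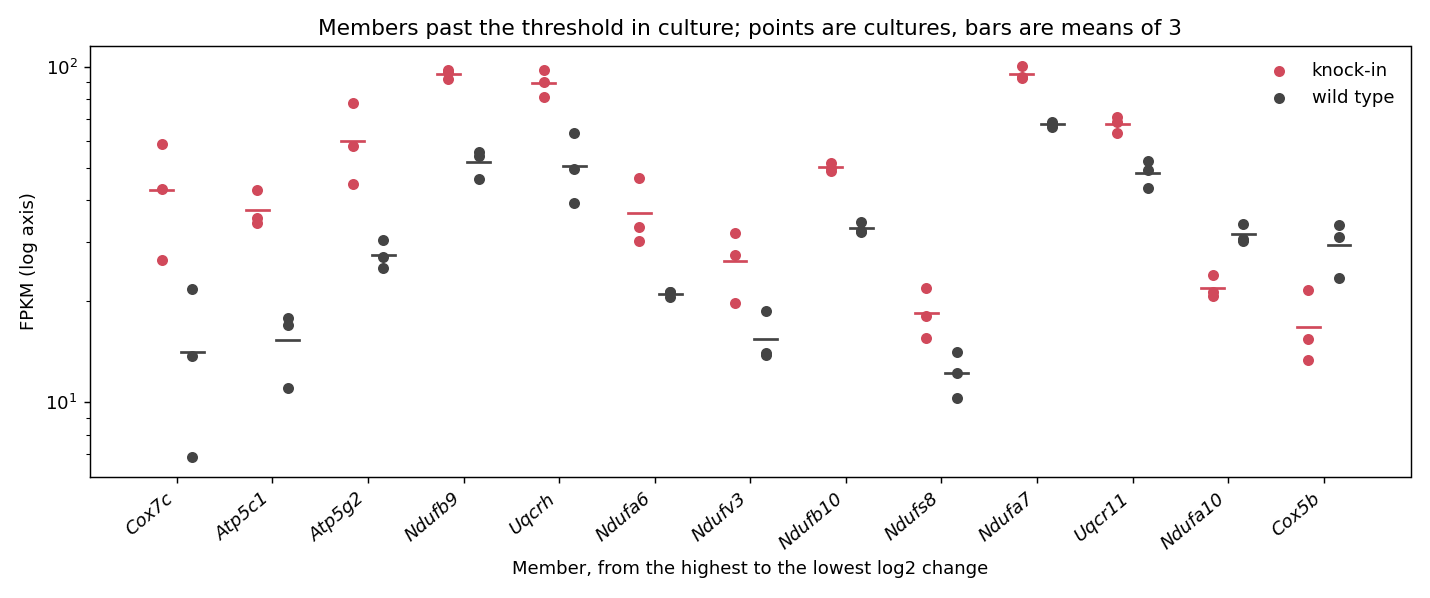
FPKM (vertical axis, log scale) of the 13 members that passed the test in day 4 cultures, with a point for each of 3 knock-in and 3 wild-type cultures and a bar at the mean. Cox7c lies at 26.5 to 58.9 FPKM in knock-in and 6.86 to 21.8 FPKM in wild-type cultures, and Cox5b and Ndufa10 are the 2 that are lower in knock-in.

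In complex III, Uqcrh, the hinge protein that helps cytochrome c dock, had 89.9, 81.1 and 97.8 FPKM in knock-in cultures, against 63.4, 39.3 and 49.5 FPKM in wild-type cultures. Its log2 change was 0.83 (SE 0.18, limma adjusted p = 0.0112). Uqcr11 had 68.4, 63.3 and 71.0 FPKM in knock-in cultures, against 52.2, 43.6 and 49.3 FPKM in wild-type cultures, a log2 change of 0.48 (SE 0.12, limma adjusted p = 0.0187). Neither gene overlapped between lines. Complex III as a sum of its 8 members ran over 375 to 437 FPKM in knock-in cultures and 292 to 309 FPKM in wild-type cultures, and its median log2 change, 0.43, was the largest of the 5 complexes.

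In complex I, the accessory subunit Ndufb9 had 96.3, 91.7 and 97.8 FPKM in knock-in cultures, against 54.3, 46.3 and 55.8 FPKM in wild-type cultures. Knock-in values were clear of wild-type values, with a log2 change of 0.86 (SE 0.12, limma adjusted p = 0.00164). The other complex I members that rose were Ndufa6 (log2 change 0.75), Ndufv3 (0.72), Ndufb10 (0.59), Ndufs8 (0.56) and Ndufa7 (0.49), with limma adjusted p from 0.00541 to 0.0429. Ndufs8 is a core subunit that holds iron-sulfur clusters, and the other 5 are accessory subunits. Ndufa10, an accessory subunit, had 20.7, 23.9 and 21.3 FPKM in knock-in cultures, against 34.1, 30.3 and 30.6 FPKM in wild-type cultures. It fell by 0.51 on the log2 scale (SE 0.12, limma adjusted p = 0.0169), and its groups did not overlap.

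The 4 genes of complex II all missed the threshold in culture. Sdhd had 31.8, 36.0 and 40.8 FPKM in knock-in cultures, against 29.7, 26.7 and 27.8 FPKM in wild-type cultures. These did not overlap, but the log2 change of 0.35 did not pass (SE 0.13, limma adjusted p = 0.0754). Sdha (-0.15), Sdhb (-0.03) and Sdhc (-0.26) did not pass either. In all, 17 members were higher and 8 lower without overlap, beside 24.4% and 24% of all genes tested.

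Some of these members lie on chromosomes whose genes were shifted as a whole. Over all genes, the median log2 change was 0.49 on chromosome 15, -0.34 on chromosome 1, -0.34 on chromosome 8 and -0.39 on chromosome 14, and between -0.17 and 0.13 on the others. Of the 4 members tested on chromosome 15, Atp5g2, Ndufa6 and Ndufb9 rose, and the 2 members that fell, Ndufa10 and Cox5b, lie among the 6 tested on chromosome 1. With each library's chromosome medians taken off, 8 members were higher and 0 lower (16.5% and 13.2% of all genes), and 7 of these were among the 13. On that scale, Cox7c (log2 change 1.62), Atp5c1 (1.17), Uqcrh (0.80), Ndufv3 (0.68), Ndufb10 (0.55), Uqcr11 (0.47) and Ndufa7 (0.46) kept their call. Atp5g2 (0.52), Ndufb9 (0.31), Ndufa6 (0.19), Ndufa10 (-0.05) and Cox5b (-0.32) lost it with a smaller change. Ndufs8 (0.57, limma adjusted p = 0.0543) missed the threshold with a change no smaller than before, and Cox8a (0.40, limma adjusted p = 0.0460) gained it. That removal was added after the data were seen.

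**Figure D4:**
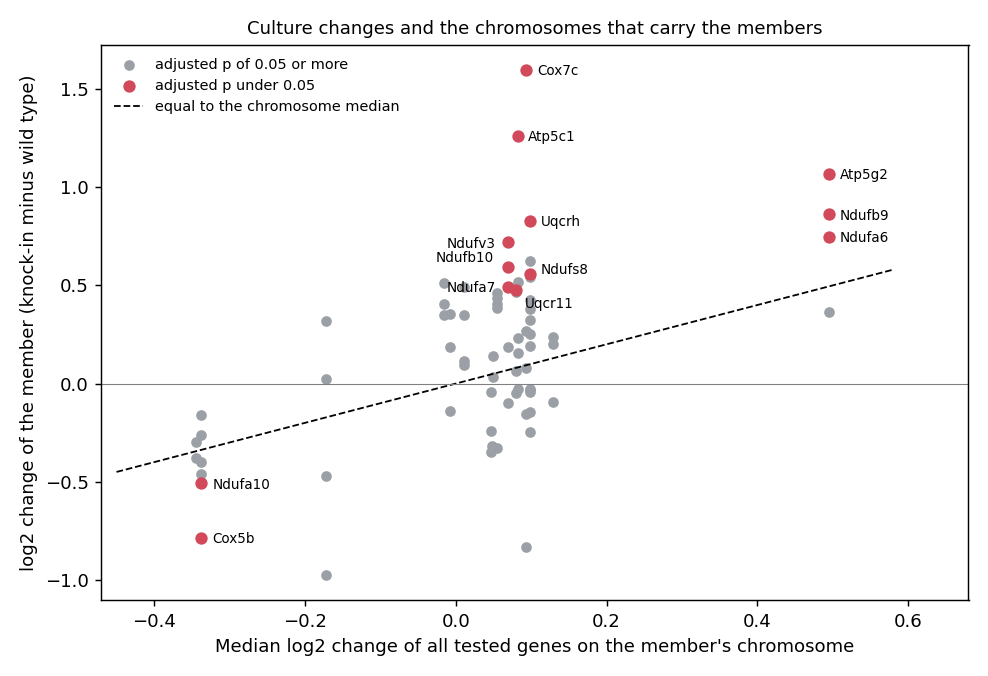
Log2 change of each member in knock-in over wild-type cultures (vertical axis) against the median log2 change of all genes tested on its chromosome (horizontal axis), with members past the limma threshold in red and a dashed line where both are equal. The members at 0.49 on the horizontal axis lie on chromosome 15, where 3 of 4 passed as higher, and both members that passed as lower lie on chromosome 1.

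Adding the FPKM of near-identical copies to each member gave 16 higher and 2 lower (16.3% and 16.2% of all genes in that fit), with 12 of the 13 calls shared. Cox5b lost its call (-0.30, limma adjusted p = 0.108). Cox7c changed by 0.71 and Atp5c1 by 0.70 on that scale. Atp5h, Cox7b, Ndufb4, Ndufs3 and Uqcr10 then rose and Uqcrb fell. The 3 cultures whose tables carry the same lane token, 2 knock-in and 1 wild type, gave 0 calls among the members by themselves in limma, with 14 members at an unadjusted p under 0.05 (29% of all genes). The lone wild-type culture is assumed there to vary like the knock-in ones.

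Other mitochondrial genes were counted beside the members, with the chromosome medians described above left in. The part of those chromosome shifts in the changes below was not tested. In this fit 16.2% of all genes were higher and 16.2% lower, and each count below is to be read beside those shares. Of 6 subunits or subunit-like genes outside the naming rule, 3 rose in knock-in cultures: Atpif1, an inhibitor of ATP synthase (log2 change 1.07), Cyc1, the cytochrome of complex III (0.93), and Cox7a2l (0.50). Assembly factors rose in 3 of 25, and of 13 mitochondrially encoded subunits 0 passed limma's adjusted threshold, with 1 lower at an unadjusted p under 0.05. Among carriers, 1 rose and 2 fell of 15. These were the ADP/ATP exchangers Slc25a5 (0.56) and Slc25a4 (-1.21), and the outer membrane channel Vdac2 (-0.56). The tricarboxylic acid cycle had 1 higher and 1 lower of 15. Regulators had 3 higher, Gabpa (0.81), Peo1 (0.67) and Nrf1 (0.48), and 1 lower, Tfb2m (-0.61), of 13. Glycolytic genes rose in 8 of 12, led by Ldha (1.23) and Pgk1 (1.07), cytosolic ribosomal protein genes in 36 of 75 and mitochondrial ribosomal protein genes in 23 of 74, with 4 of the last lower.

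The cultures also differed in cell type markers, and the part of this in the members' changes was not tested. All 6 streak markers were above 0 and summed to 90.2 to 111 FPKM in knock-in cultures, against 303 to 461 FPKM in wild-type cultures. The 7 epiblast markers (such as Pou5f1 and Sox2) summed to 1595 to 1844 FPKM in knock-in cultures, against 561 to 737 FPKM in wild-type cultures. Trophoblast and extraembryonic ectoderm markers, 5 listed of 6, summed to 220 to 259 FPKM in knock-in cultures and 653 to 1155 FPKM in wild-type cultures. This list shares Eomes with the streak list, and 1 of the 5 was at 0 in all knock-in cultures. Visceral endoderm markers (11 genes) summed to more in knock-in cultures, 270 to 346 FPKM, against 210 to 249 FPKM in wild-type cultures. Only 1 of these 11 averaged 1 FPKM or more in either line. In bulk libraries, fewer cells of a type and less RNA per cell cannot be told apart.

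In the embryo, mesoderm sections had less of 7 members than the streak sections of the same genotype and layer, and none had more. The 7 pairs of sections (4 homozygous and 3 heterozygous) gave 0 members higher and 7 lower (9.46%) of 74 tested with limma, beside 0.579% higher and 8.04% lower of all 9146 genes. The median log2 difference was -0.33 over the members and -0.34 over all genes tested. The members were thus lower about as often and by about as much as genes in general. After each library was scaled by its median ratio, the all-gene median was -0.00 and no member passed limma's test (0 of 74, beside 0.383% higher and 0.306% lower of all genes, with 6 higher and 4 lower at an unadjusted p under 0.05, beside 6.4% and 7.35%). So the 7 differences hold on the FPKM scale as deposited. Labels tie no section to an embryo, so sections may share one and these p-values may be too small.

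Both anchors of complex II were among the 7. Sdhd (chr9:50596338-50603849 on mm10) had 85.6, 64.3, 65.8 and 56.3 FPKM in homozygous mesoderm layers 5, 7, 9 and 11, against 94.2, 122, 118 and 121 FPKM in the matching streak layers. In heterozygous layers 7, 9 and 11 it had 21.4, 25.8 and 5.36 FPKM in mesoderm, against 53.3, 102 and 29.9 FPKM in streak. Mesoderm was lower in 7 of 7 pairs, by 1.21 on the log2 scale (log2 difference -1.21, SE 0.24, limma adjusted p = 0.0174). Sdhc had 19.5, 18.7, 24.0 and 29.9 FPKM in homozygous mesoderm, against 38.9, 30.4, 30.9 and 36.8 FPKM in streak. In heterozygous sections it had 11.9, 8.94 and 1.90 FPKM in mesoderm and 16.4, 19.6 and 6.27 FPKM in streak. It was lower in 7 of 7 pairs, with a log2 difference of -0.73 (SE 0.20, limma adjusted p = 0.0479). The catalytic subunits did not pass, with log2 differences of -0.18 for Sdha (adjusted p = 0.649) and -0.81 for Sdhb (adjusted p = 0.117).

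Atp5c1 (chr2:10056016-10080510 on mm10) had 9.73, 10.5, 9.74 and 11.5 FPKM in homozygous mesoderm, against 15.2, 21.3, 19.1 and 14.8 FPKM in streak. In heterozygous sections it had 3.17, 3.99 and 1.93 FPKM in mesoderm and 8.98, 15.9 and 10.1 FPKM in streak. The 2 regions did not overlap within either genotype, and the log2 difference was -1.10 (SE 0.24, limma adjusted p = 0.0221). Ndufa12 (log2 difference -0.82), Ndufs4 (-0.76), Uqcr11 (-0.52) and Atp5sl (-1.10), a gene named after ATP synthase that is not counted as a subunit, were each lower in 7 of 7 pairs as well. Their limma adjusted p ran from 0.0253 to 0.0436. With copies added to the genes, 0 members were higher and 6 lower (0.568% and 7.98% of all genes), 5 of them the same. Atp5c1 (-0.81, limma adjusted p = 0.0739) and Uqcr11 (-0.49, limma adjusted p = 0.0972) dropped out, and Atp5f1 (-0.73, limma adjusted p = 0.0178), a stator subunit, came in.

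The count rested on few sections. Without the homozygous or the heterozygous layer 7 pair, 1 member passed. Without the homozygous pair of layer 9, 2 passed, and without the homozygous pair of layer 11 or the heterozygous pair of layer 9, 3 passed. It was 4 without the heterozygous pair of layer 11, and 17 in the fit that ignored the pairs. The shares of all genes called in these fits are not given here, so these counts are not set against all genes. By limma the 4 homozygous pairs alone gave 0 calls, with 19 members at an unadjusted p under 0.05 (22.5% of all genes), and the 3 heterozygous pairs alone gave 0, with 6 (12.6% of all genes). Beside the members, 3 of 36 assembly factors were lower (Ndufaf4, Cox14 and Cox17), as were 3 of 13 mitochondrially encoded subunits (mt-Cytb, mt-Atp6 and mt-Co1, log2 differences -0.77, -0.68 and -0.59), 3 of 11 glycolytic genes, 9 of 76 mitochondrial ribosomal protein genes and 0 of 15 genes of the tricarboxylic acid cycle, with 3 of the last lower at an unadjusted p under 0.05 in limma. Of all genes, 8.04% were called lower in the fit of all 7 pairs. With libraries scaled, limma called 0 lower in each of these lists. At an unadjusted p under 0.05, 0 assembly factors, 0 mitochondrially encoded subunits, 2 glycolytic genes and 6 mitochondrial ribosomal protein genes were then lower. Higher were 0, 2, 0 and 4, in the same order, beside 7.35% lower and 6.4% higher of all genes. Of 74 cytosolic ribosomal protein genes, 13 were higher and 1 lower at that limit. Visceral endoderm markers, all 10 listed, summed to 86.8 to 983 FPKM in homozygous mesoderm, 49.6 to 1544 FPKM in homozygous streak, 49.4 to 129 FPKM in heterozygous mesoderm and 42.4 to 366 FPKM in heterozygous streak. Their part in these differences was not tested.

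**Figure D5:**
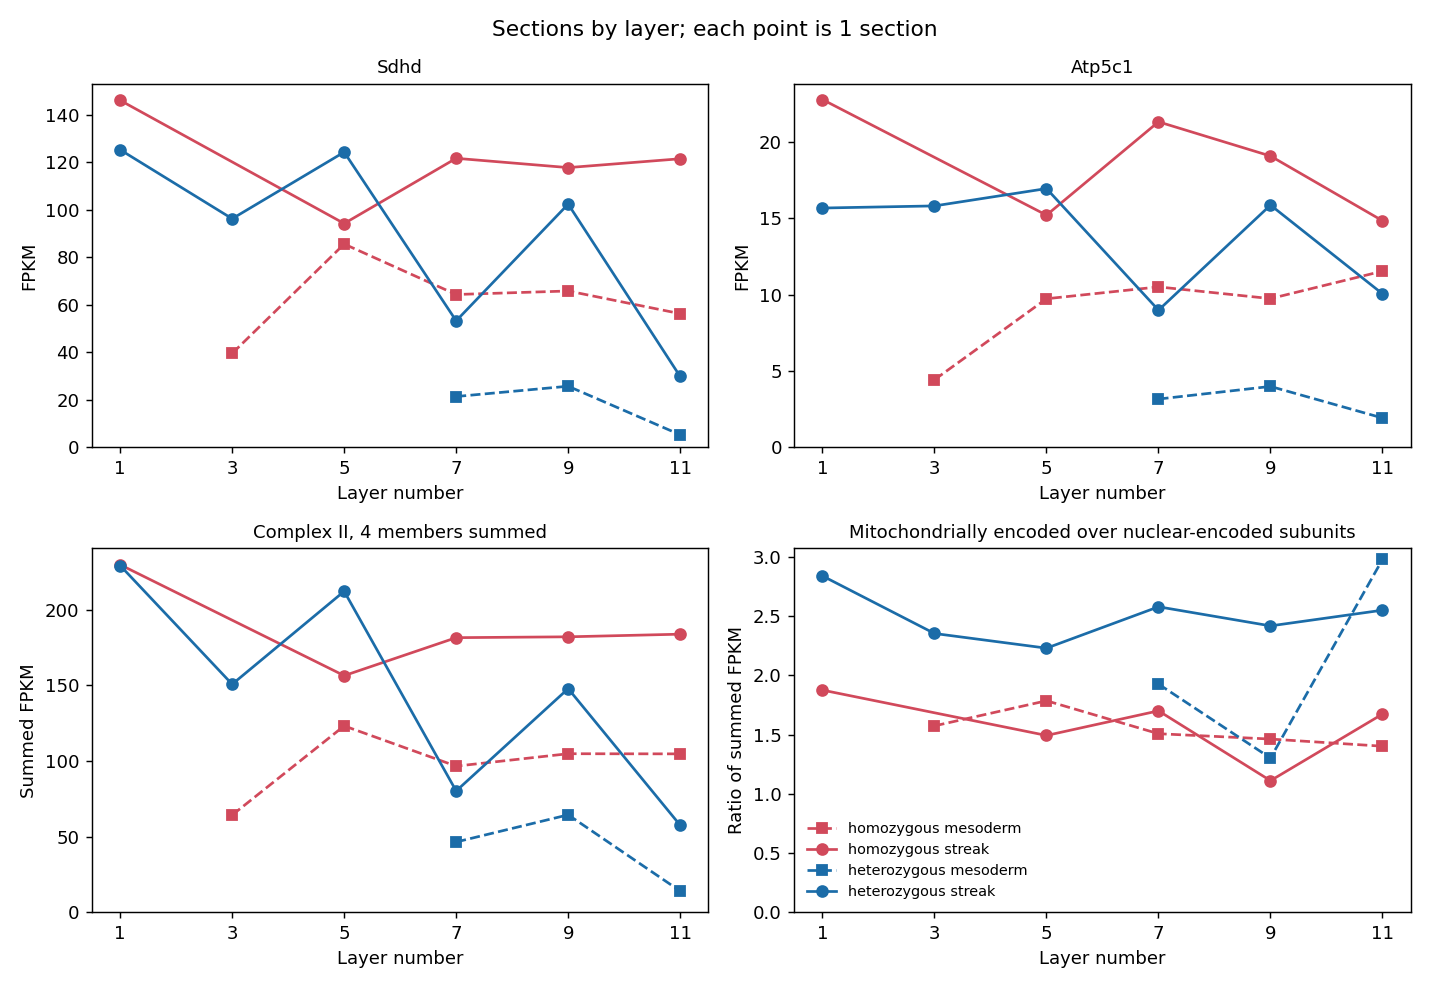
FPKM of Sdhd and of Atp5c1, the summed FPKM of the 4 complex II members, and the ratio of mitochondrially encoded to nuclear-encoded subunits, by section layer number (horizontal axis), in homozygous and heterozygous mesoderm (squares, dashed) and streak (circles, solid), with a point for each section. Sdhd lies at 39.6 to 85.6 FPKM in homozygous mesoderm, 94.2 to 146 FPKM in homozygous streak, 5.36 to 25.8 FPKM in heterozygous mesoderm and 29.9 to 125.2 FPKM in heterozygous streak.

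Between genotypes, no member passed in either region. In streak, 0 of 74 members were called higher or lower in homozygous than in heterozygous sections by limma, beside 0% higher and 0.0201% lower of all 9932 genes. Below 0.05 unadjusted, 5 members were higher and 0 lower, beside 9.04% and 1.15% of all genes. The median log2 difference was 0.18 over members and 0.25 over all genes (-0.08 and 0.05 with libraries scaled), and the lowest limma adjusted p was 0.369. The largest difference was that of Ndufb2, a small accessory subunit of complex I, which had 56.9, 71.5, 42.6, 62.4 and 62.2 FPKM in homozygous streak, against a range of 12.2 to 42.2 FPKM with a median of 37.9 FPKM in the 6 heterozygous sections. The groups did not overlap, which held for 1 member higher, beside 0.745% of all genes, and the log2 difference of 1.10 did not pass (SE 0.35, limma adjusted p = 0.369). Ndufv1 (0.90), Uqcrfs1 (0.87) and Ndufv3 (0.82) followed, and Atp5g2 (-0.41), Cox6b2 (-0.32), Ndufs5 (-0.29) and Ndufb3 (-0.23) were at the other end, none of them past the threshold. Sections may share embryos here too, so these p-values may be too small.

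In mesoderm, 0 of 73 members were called by limma, beside 0.196% higher and 0% lower of all 8695 genes. At an unadjusted p under 0.05, 8 were higher and 1 lower, beside 13.9% and 1.55% of all genes, and with libraries scaled 6 were higher and 5 lower, beside 9.34% and 5.78%. The median log2 difference was 0.15 over members and 0.31 over all genes, and with libraries scaled -0.21 and 0.05. Sdhd had 39.6, 85.6, 64.3, 65.8 and 56.3 FPKM in homozygous mesoderm, against 21.4, 25.8 and 5.36 FPKM in heterozygous mesoderm. All 5 homozygous values were above all 3 heterozygous values, yet the log2 difference of 1.88 did not pass (SE 0.53, limma adjusted p = 0.149, over sections that may share embryos). Sdhc (1.61), Atp5c1 (1.47) and Ndufs7 (1.35) came next, and Uqcrb (-1.03), Cox6b2 (-0.68), Atp5j2 (-0.57) and Ndufb5 (-0.51) were lowest. In all, 7 members were higher without overlap, beside 8.6% of all genes, and 0 were lower, beside 1.06%.

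With both regions in 1 fit of 19 sections, 0 of 74 members passed limma's threshold, beside 1.13% higher and 0.115% lower of all 9527 genes. At an unadjusted p under 0.05, 13 were higher and 0 lower, beside 18.4% and 1.72% of all genes, and with libraries scaled 9 were higher and 9 lower, beside 10.5% and 6.88%. The closest were Sdhd with a log2 difference of 1.10 (SE 0.30, limma adjusted p = 0.0623), Ndufb10 with 0.87 (SE 0.24, adjusted p = 0.0649) and Ndufb2 with 0.91 (SE 0.26, adjusted p = 0.0674). Sdhc (0.88, limma adjusted p = 0.138) followed, and Cox6b2 (-0.58), Ndufs5 (-0.34), Atp5j2 (-0.30) and Uqcrb (-0.28) were lowest. The count of 0 became 4 among genes with a mean of 5 FPKM or more (4.38% of all genes higher), 6 with the conflicting sections placed by title (8.08%) and 8 with them placed by cell type label (8.39%). Without the homozygous mesoderm section of layer 3, 4 members passed (5.72% of all genes higher), and without the heterozygous streak section of layer 9, 3 passed (3.41%). Without the heterozygous streak section of layer 1, 2 passed, and without the layer 5 streak section of either genotype 1 passed. For these last fits the shares of all genes called are not given here, so their counts are not set against all genes. Ndufb10 had 53.3 to 96.1 FPKM in homozygous streak, 31.9 to 68.8 FPKM in heterozygous streak, 42.6 to 74.5 FPKM in homozygous mesoderm and 11.9 to 41.7 FPKM in heterozygous mesoderm. It overlapped between genotypes in streak and not in mesoderm. The median over members was 0.12, below the all-gene 0.24, and with libraries scaled it was -0.12, beside 0.05. The sign of the members' median therefore turned with the scaling, while that median lay below the all-gene median on both scales. These sections may share embryos, so the p-values may be too small.

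Complex II stood highest among the complexes in that fit, with all 4 members above 0 and a median of 0.60, beside 0.24 over all genes. With libraries scaled it was still highest, but 3 of its 4 members were above 0 and its median was 0.34, beside 0.05 over all genes. Summed, its 4 members had 156 to 230 FPKM in homozygous streak and 57.5 to 229 FPKM in heterozygous streak, which overlap. In mesoderm they had 64.3 to 123 FPKM in homozygous and 14.01 to 64.4 FPKM in heterozygous sections, which met at the edge. Epiblast markers, all 7 above 0, summed to 159 to 338 FPKM in homozygous streak and 67.8 to 182 FPKM in heterozygous streak, and their part in these values was not tested. The difference between the genotype effects in mesoderm and in streak was tested as an interaction over the 19 sections. It called 0 of 74 members, beside 0% higher and 0% lower of all genes, with 1 higher and 1 lower at an unadjusted p under 0.05, beside 2.06% and 1.48%. The estimate for Sdhd was 1.18 (SE 0.58, limma adjusted p = 0.999, over sections that may share embryos).

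Nuclear members and mitochondrially encoded subunits stood in different proportions in the 2 genotypes in streak, whereas in mesoderm the genotypes overlapped. The FPKM of 13 mitochondrially encoded subunits, divided by that of all nuclear members, was 1.88, 1.49, 1.70, 1.11 and 1.67 in homozygous streak. In heterozygous streak it ran from 2.23 to 2.84 with a median of 2.49. The 2 genotypes did not overlap in streak, and with copies counted among the nuclear genes they did not either (0.407 to 0.793 in homozygous and 0.839 to 1.14 in heterozygous sections). In mesoderm the ratio was 1.40 to 1.79 in homozygous and 1.30 to 2.98 in heterozygous sections, which overlap. It was 1.84 in the homozygous and 2.00 in the heterozygous anterior epiblast section, and 0.341 to 0.704 in knock-in and 0.418 to 0.699 in wild-type cultures. These ratios are descriptions of the libraries. Of the mitochondrially encoded genes, mt-Nd6, a complex I subunit, passed over both regions, with a log2 difference of -0.76 between homozygous and heterozygous sections (SE 0.16, limma adjusted p = 0.0259, over sections that may share embryos). It was the 1 of 13 called as deposited, with 6 lower at an unadjusted p under 0.05. With libraries scaled, limma called 7 of the 13 lower over both regions, and in streak alone it called 0, with 13 of 13 lower at an unadjusted p under 0.05, against 4 as deposited. Of all 9527 genes, 67 were called lower over both regions on that scale. In mesoderm alone on that scale limma called 0 of the 13, with 6 lower and 0 higher at an unadjusted p under 0.05. Beside these, 5.78% of all genes were lower. The median log2 difference of the 13 there was -0.54, beside 0.05 over all genes. The interaction of genotype and region called 0 of the 13, so a difference between the regions was not shown by that test. Cytosolic ribosomal protein genes also moved down, with 2 of 74 called lower and 1 higher by limma over both regions. Below 0.05 unadjusted, 29 of those 74 were lower and 2 higher, beside 6.88% of all genes lower. In streak alone, 21 were lower and 1 higher, and in mesoderm alone 22 were lower and 1 higher.

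Along the layers, no member showed a slope that passed. In streak, 0 of 74 members rose or fell with layer number by limma, beside 0.0101% higher and 0.0705% lower of all genes, with 2 rising and 3 falling slopes below 0.05 unadjusted, beside 2.25% and 14.5% of all genes. Sdhc had the steepest slope, -0.19 log2 units per layer number (SE 0.05, limma adjusted p = 0.125). It had 51.2 FPKM in layer 1 and 36.8 FPKM in layer 11 of homozygous streak, and 74.6 FPKM in layer 1 and 6.27 FPKM in layer 11 of heterozygous streak. In mesoderm, 0 of 73 members had a slope past the threshold, beside 0.0115% higher and 0% lower of all genes, and 0 rising and 1 falling slope, of Uqcrb (-0.15 per layer number), had an unadjusted p under 0.05, beside 2.82% and 2.05%. Sections may share embryos in both fits, which can make their p-values too small.

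Anterior epiblast, the side of the embryo opposite the streak, was sampled once per genotype over layers 4 to 6 and allows no test. The median member had 14.3 FPKM in the homozygous and 14.5 FPKM in the heterozygous section. Sdhd had 98.3 FPKM in the homozygous and 55.3 FPKM in the heterozygous section, Ndufb10 had 36.4 FPKM in the homozygous and 14.6 FPKM in the heterozygous section, and Uqcr11 had 297 FPKM in the homozygous and 202 FPKM in the heterozygous section. These were picked from the comparisons above. Of the 70 members that averaged 1 FPKM or more over both sections, 43 were higher in the homozygous section and 27 lower, and 61.4% of members and 63.4% of all genes were higher there. The widest gaps upward were those of Uqcrc1, a core protein of complex III, with 9.27 FPKM in the homozygous and 1.05 FPKM in the heterozygous section, and of the Rieske protein Uqcrfs1, with 55.9 FPKM in the homozygous and 12.8 FPKM in the heterozygous section. The widest downward were those of Atp5d, a subunit of the central stalk of ATP synthase, with 26.1 FPKM in the homozygous and 57.4 FPKM in the heterozygous section, and of the accessory subunit Ndufa5, with 0.547 FPKM in the homozygous and 1.95 FPKM in the heterozygous section.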

How the data were processed

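RNA was measured by sequencing in 6 cultures and 24 embryo sections. The authors deposited 1 FPKM table per library in Cufflinks format, and the submitters' processing notes name CASAVA, TopHat2 2.0.11 and mm10, while the tool that made the values is not given in the sources used here. Per the labels' protocols, mRNA was selected on beads and libraries were stranded, and sections followed Geo-seq. Positions in the section tables are those of mm10, whereas most members lie at other positions in the culture tables, whose build is not given in the sources used here. No counts were used, so depth and counting error are unknown.

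Here, genes that averaged 1 FPKM or more across the compared libraries were tested with limma 3.58.1 in R 4.3.3 on log2(FPKM + 1), with a trended prior, two-sided, and Benjamini-Hochberg adjustment over all genes, at a threshold of 0.05. Fold changes on this scale understate those of low genes. Genotype fits in sections had layer number as a covariate, and mesoderm was set against streak within 7 pairs of 1 genotype and layer. The fits were tested on simulated data. Named first are the members past the threshold, up to 8 each way, or otherwise the 4 largest differences each way, and complex II, the isoform sets and the extremes of each complex are always given. Near-identical copies were found by blastn against GENCODE vM21 transcripts, and promoters and their letters came from RefSeq. Members, lists and alternatives were chosen with earlier results of these data known, and the copy, chromosome and lane alternatives were added after the data were seen.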

Additional observations from a re-analysis of the deposited data

Results flagged for a closer look

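Atp5c1, the gamma subunit of ATP synthase, was low in a section of homozygous mesoderm. Layer 3 had 4.43 FPKM, whereas the other 4 homozygous mesoderm sections had 9.73 to 11.5 FPKM. The gap made up 0.746 of the range of the group, beyond Dixon's limit of 0.71 for 5 sections. Of 48 groups of values examined in this way, 1 passed the limit, and chance alone passes about 1 in 20. Without this section the fit of mesoderm against streak is the same, since layer 3 has no homozygous streak partner.

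Atp5k, a membrane subunit of ATP synthase, was listed at 0 in all 21 assigned sections, yet 2 of the 3 sections with conflicting labels had a value above 0, namely 1.80 FPKM and 4.37 FPKM. Cox6a2 and Cox7a1, the other members at 0 in all assigned sections, were at 0 there too. These sections entered no comparison between groups.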

How the results depend on the processing

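Depth is unknown, sections may share embryos, and culture numbers carry no pairing (correlations of same-numbered cultures -0.117, -0.0535 and -0.0512). In culture, the 13 calls became 9 with the replicate block, 8 with chromosome medians taken off, 8 without chromosomes 1, 8, 14 and 15, and 0 with the cultures of 1 lane token, where the members' median stood 0.0174 above that of all genes. For mesoderm against streak, the 7 calls became 17 with no replicate block, 18 with the conflicting sections placed by title, and 0 with no filter on low values (median relative to all genes -0.306), with scaling, with homozygous pairs alone and with heterozygous pairs alone. The shares of all genes called in the fits with 17 and 18 calls are not given here. For genotype over both regions, the count of 0 became 4 at a mean of 5 FPKM or more, 6 with conflicting sections placed by title and 8 by cell type label. For genotype in mesoderm it became 3 by title, and without the filter the members' median moved to 0.0354 above all genes. Leaving out 1 library gave 10 to 16 calls in culture (median relative to all genes 0.0623 to 0.178), 1 to 6 for mesoderm against streak (-0.0906 to 0.0912), and 0 to 4 for genotype over both regions (-0.158 to -0.0112). It gave 0 for genotype in mesoderm (-0.397 to 0.0786) and in streak (-0.136 to 0.00307), and 0 for the layer trends in mesoderm (-0.0101 to 0.0282) and in streak (0.00566 to 0.0334). With copies added, the sign turned for Uqcrb in mesoderm (0.143), over both regions (0.0583), in the mesoderm layer trend (0.0311) and in the interaction (0.0744), for Atp5j2 in mesoderm (0.376) and for Atp5l in the interaction (-0.192). Of all values recomputed for named members, 933 kept their sign and side of the threshold, 127 no longer passed and 20 newly passed. The cause of these shifts was not tested.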

Other observations

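The 3 sections with conflicting labels were read for the members without being placed in a group. Sdhd had 149, 23.2 and 23.6 FPKM in them, Sdhc had 12.9, 10.3 and 12.6 FPKM, and Atp5c1 had 26.8, 5.18 and 4.30 FPKM. The mitochondrially encoded subunits summed to 1.84, 2.48 and 1.79 times the nuclear members in the same 3 sections.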
